A study of Mus musculus with 2 samples.

Results

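Bone morphogenetic proteins (BMPs) and the genes around them were followed across the cell types of alveolar bone, the jaw bone around the roots of the teeth, in the mouse. The 9 genes are the ligands Bmp2, Bmp4 and Bmp6, the receptors Bmpr1a and Bmpr2, the secreted antagonists Nog (noggin) and Grem1 (gremlin 1), and the target genes Id1 and Smad6. They were taken by symbol, and each of the 9 was found among the 56419 symbols in the files. Their UMIs (unique molecular identifiers, which count RNA molecules) were summed in each cell type, in each library on its own.

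BMPs are secreted as dimers and bring together type I receptors, such as the one encoded by Bmpr1a, and type II receptors, such as the one encoded by Bmpr2. The active type I receptor phosphorylates the SMAD proteins that carry the signal to the nucleus, where Id genes and the inhibitory Smad6 are among the genes switched on. Noggin and gremlin bind the ligands outside the cell and keep them from their receptors, and in bone the balance of ligand and antagonist is known to govern how osteoblasts form.

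The study took healthy C57BL/6J mice of 6 to 8 weeks and 20 to 25 g, in which a coil spring pulled the upper right first molar forward with a force of 25 g, or was attached without force in the controls. On day 7 the molar was extracted and bone within 1 mm of its socket was collected from the 12 mice, pooled by 6 in each group, digested for 60 min and freed of red cells. The labels do not tie either of the 2 libraries to a group, so force was not compared with control. The libraries are called library 1 and library 2 here, and a difference between them is a difference between these 2 pools.

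Library 1 held 77546284 UMIs and 9309 cells with a median of 3286 UMIs, and library 2 held 116742643 UMIs and 11298 cells with a median of 4590 UMIs. Before cells were dropped as possible doublets, the 2 libraries shared 74 cell barcodes, beside 65.9 expected by chance. Cells fell into 27 classes, named from marker lists or, for 5 unnamed clusters, by their leading genes, and 25 classes had at least 30 cells in both libraries and could be ranked. Stromal classes, which include the bone, ligament and marrow stroma cells and the pericytes (the class of pericyte or smooth muscle-like cells), made up 25.5% and 29.8% of the cells, and endothelial-like cells 3.22% and 5.15%. The unnamed cluster led by Spp1, Dmp1 and Enpp1 (the Spp1 cluster) had 6 of 6 osteocyte markers raised, but 1 of them among its 10 leading genes. The cluster led by Egr1, Gm15398 and Fos (the Egr1 cluster) had 5 of 7 periodontal ligament markers raised and 0 among its leading genes. The cluster led by Apod, Igfbp5 and Scara5 (the Apod cluster) had 6 of 7 fibroblast markers raised. A cluster led by Igfbp6 (the Igfbp6 cluster) had 4 of 5 chondrocyte markers raised and 0 among its leading genes. It held 27 cells in library 1 and 317 in library 2, so it was not ranked. Whether it is a cell type or belongs to library 2 alone was not tested.

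The 3 ligands are related proteins, and their coding sequences are shown because a reader may ask whether counts of one could come from another. The last 37 codons before the stop codon are given 5′ to 3′ from the GENCODE M21 transcripts, with the 61 bases shared by the 3 genes in capitals.
Bmp2: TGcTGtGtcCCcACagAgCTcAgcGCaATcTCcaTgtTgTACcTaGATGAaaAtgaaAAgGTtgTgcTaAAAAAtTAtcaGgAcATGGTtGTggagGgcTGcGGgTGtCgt
Bmp4: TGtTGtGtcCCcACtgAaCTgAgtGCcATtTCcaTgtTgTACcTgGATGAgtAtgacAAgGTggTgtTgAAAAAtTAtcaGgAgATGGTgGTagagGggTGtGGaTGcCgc
Bmp6: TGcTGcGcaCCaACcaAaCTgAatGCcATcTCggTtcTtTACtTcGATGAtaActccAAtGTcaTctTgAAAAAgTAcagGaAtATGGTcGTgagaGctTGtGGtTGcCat
Bmp2 and Bmp4 were identical at 80.2% of these bases, Bmp4 and Bmp6 at 63.1%, and Bmp2 and Bmp6 at 59.5%. The longest stretch that any 2 of the 9 genes' transcripts had in common was 17 bases, over 36 pairs of genes.

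**Figure D1:**
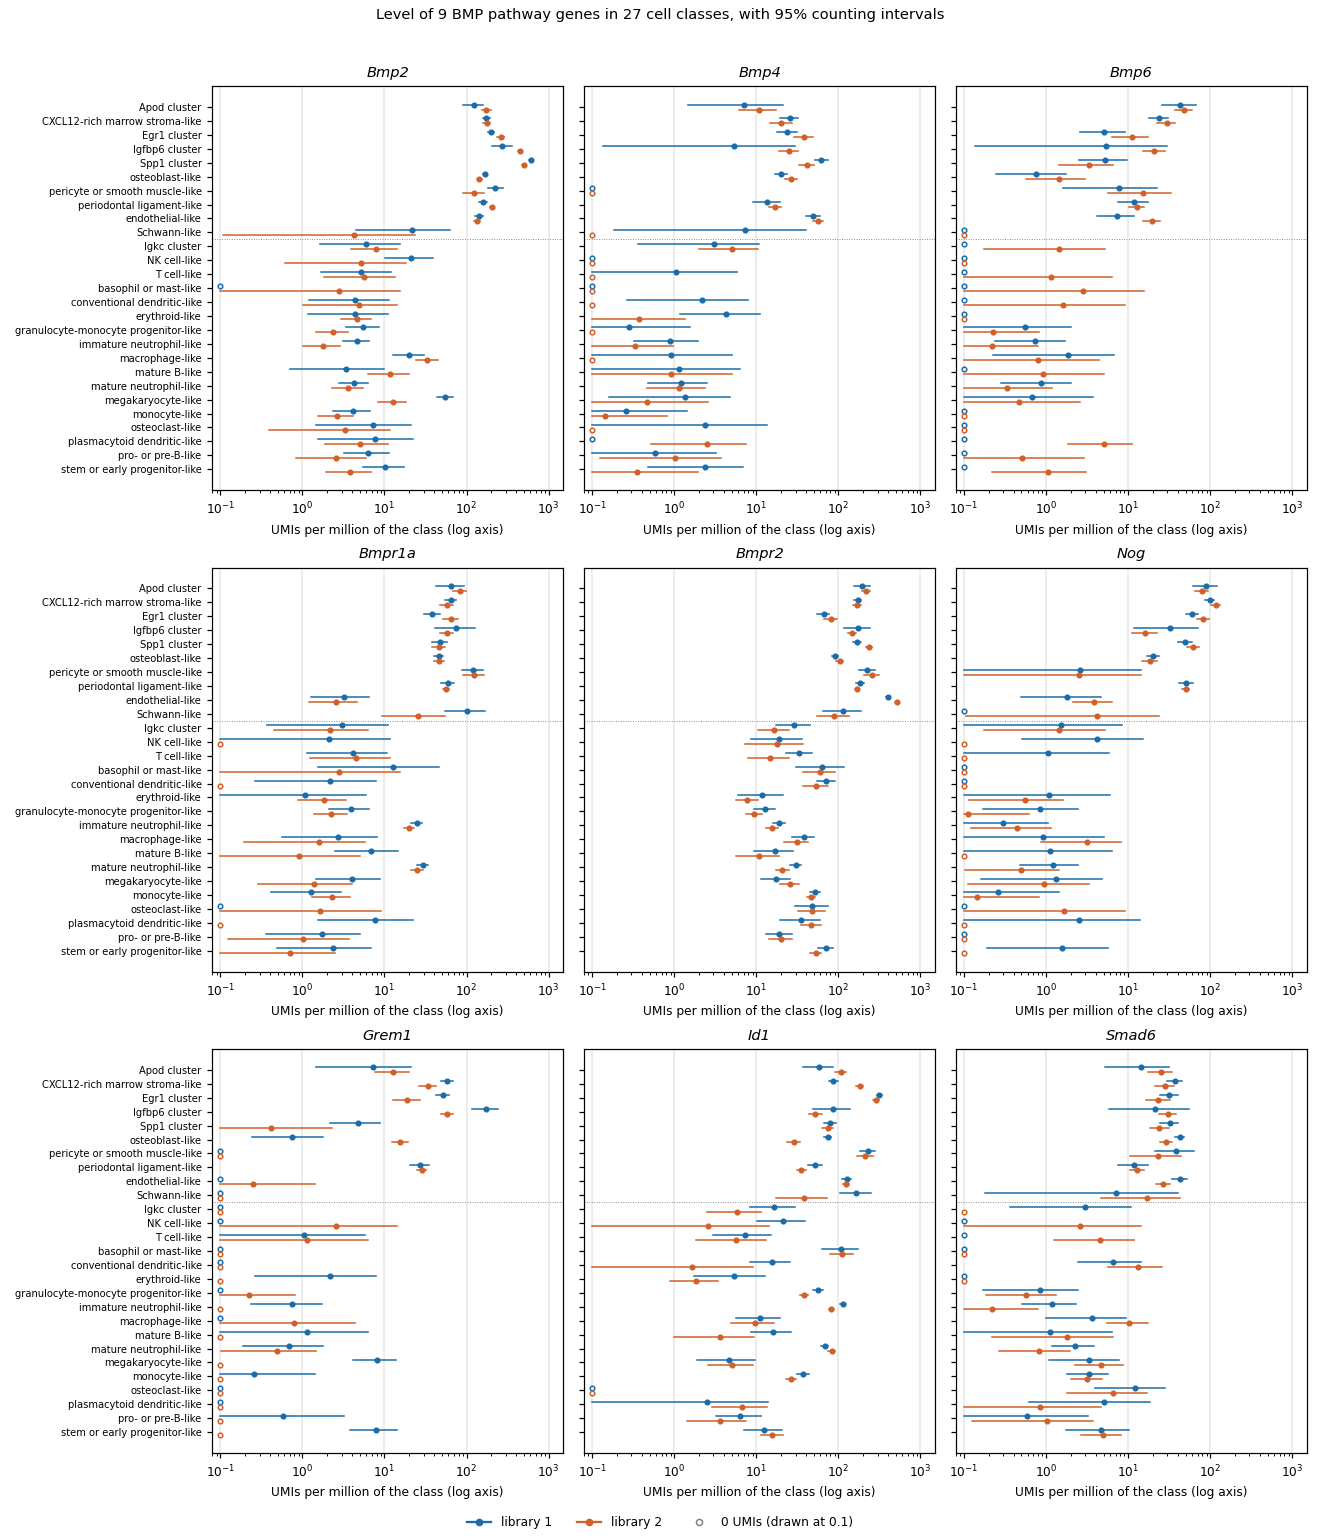
Each panel gives 1 gene. The horizontal log axis is the level in CPM, the gene's UMIs per 1000000 UMIs of the class, the rows are the 27 cell classes with non-blood classes above the dotted line, points are library 1 (blue) and library 2 (orange), lines are 95% counting intervals and open points mark classes with 0 UMIs. Levels of Bmp2, Nog and Bmpr2 are highest above the line, while Id1 is also found in neutrophil-like and basophil-like cells below it.

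Each of the 9 genes had at least 20 UMIs in a class of both libraries, the limit for being measured. For 8 of the 9, both libraries had the same class on top, beside 53.4% of all 13500 measured genes. Bmp4 was the exception. The count of 8 depended on the settings, and was 3 with cells thinned to 1000 UMIs. In 0 of the 9 did the top class exceed each of the others by 2-fold or more, in library 1 and in library 2 alike, beside 10.4% of all measured genes. With 9 genes this count is near that share, and it depended on the settings, as given below. Most UMIs of the ligands and antagonists lay in stromal cells. Their stromal share ran from 73.7% for Bmp4 to 96.3% for Nog in library 1, and from 68.0% for Bmp4 to 98.4% for Grem1 in library 2, while stromal cells held 32.4% and 29.2% of all UMIs. Blood cells held 44.1% and 45.6% of the Id1 UMIs, 31.2% and 23.4% of those of Bmpr1a and 23.9% and 17.5% of those of Bmpr2.

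Bmp2, a ligand that induces bone formation, was highest in the Spp1 cluster. Its level there was 615 CPM (UMIs of the gene per 1000000 UMIs of the class, 95% counting interval 581 to 651) in library 1 and 506 CPM (478 to 535) in library 2, and 67.6% and 65.7% of the cluster's cells had a Bmp2 UMI. The next class was the pericyte-like one in library 1, at 225 CPM, and the Egr1 cluster in library 2, at 260 CPM. The Spp1 cluster was 2.73-fold (2.198 to 3.43) above the next class in library 1 and 1.95-fold (1.74 to 2.19) in library 2. Osteoblast-like cells held 167 and 143 CPM, so the Spp1 cluster was 3.68-fold (3.39 to 3.998) and 3.55-fold (3.23 to 3.90) above them. The Igfbp6 cluster, which was not ranked, had 273 and 450 CPM.

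Among the other non-blood classes, marrow stroma-like cells had 173 and 176 CPM, periodontal ligament-like cells 159.5 and 206 CPM, and endothelial-like cells 141 and 135 CPM. The Schwann-like cells were lower, with 21.6 and 4.22 CPM from 3 and 1 UMIs. Blood classes were lower than the stromal and endothelial ones, with 4.29 and 3.64 CPM in mature neutrophil-like cells. Their highest class was megakaryocyte-like cells in library 1, with 54.7 CPM there and 12.5 CPM in library 2, and macrophage-like cells in library 2, with 33.3 CPM there and 20.2 CPM in library 1. Free RNA, read in barcodes of 1 to 100 UMIs, held 75.5 and 76.9 CPM of Bmp2, so these blood classes lay below it. After every cell had been thinned to 1000 UMIs, 36.5% and 29.4% of the Spp1 cluster's cells still had a Bmp2 UMI, against 0.544% and 0.567% of mature neutrophil-like cells (unthinned 1.03% and 1.196%). The median depths of these 2 classes were 4611 and 4852 UMIs in the cluster and 2111 and 3221.5 UMIs in the neutrophils.

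Bmp4, the closest relative of Bmp2 here, had no shared highest class. In library 1 the Spp1 cluster led with 62.2 CPM (51.5 to 74.4) and endothelial-like cells followed with 49.1 CPM (40.3 to 59.3), and in library 2 their order was the opposite, with 41.0 CPM (33.3 to 49.9) and 56.2 CPM (49.0 to 64.1). The ratio of endothelial-like cells to the Spp1 cluster was 0.79 (0.60 to 1.03) in library 1 and 1.37 (1.08 to 1.75) in library 2. Both stood above periodontal ligament-like cells, which had 13.6 and 16.9 CPM, and endothelial-like cells were 3.61-fold and 3.33-fold above these. Pericyte-like cells, which held Bmp2, had 0 Bmp4 UMIs in both libraries, and at a floor of 3 UMIs this allows up to 7.68 and 7.62 CPM (upper ends of the exact intervals 9.44 and 9.37 CPM).

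Bmp6, known from iron control in the liver and also made in bone, was highest in the Apod cluster, with 42.9 CPM (25.4 to 67.9) from 18 UMIs in library 1 and 47.6 CPM (37.2 to 60.0) from 71 UMIs in library 2. Marrow stroma-like cells came next with 23.4 and 29.3 CPM. The Apod cluster was 1.84-fold (1.02 to 3.16) and 1.62-fold (1.14 to 2.32) above them. Osteoblast-like cells were the lowest ranked stromal class with 0.754 and 1.42 CPM, and marrow stroma-like cells were 31.02-fold (12.6 to 99.1) and 20.6-fold (9.42 to 53.2) above them. The Spp1 cluster led for Bmp2 and Bmp4 in library 1, whereas in library 2 each of the 3 ligands had another leading class, and osteoblast-like cells carried Bmp2 and Bmp4 but almost no Bmp6.

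The receptors parted in the endothelium. Bmpr2, the type II receptor, was highest in endothelial-like cells, with 401 CPM (375 to 429) and 511 CPM (489 to 534), and 75.0% and 80.1% of these cells had a UMI. Pericyte-like cells were next with 225 and 254 CPM, and endothelial-like cells were 1.78-fold (1.43 to 2.25) and 2.01-fold (1.64 to 2.48) above them. Bmpr2 was also present in every blood class, from 11.9 and 7.74 CPM in erythroid-like cells to 70.4 CPM in library 1 (conventional dendritic-like cells) and 59.0 CPM in library 2 (basophil or mast-like cells), all below the 93.4 and 98.0 CPM of free RNA.

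Bmpr1a, a type I receptor, was highest in pericyte-like cells, with 120 CPM (88.4 to 160) and 122 CPM (89.9 to 162). The other ranked stromal classes ran from 38.1 CPM in the Egr1 cluster to 64.4 CPM in the Apod cluster in library 1, and from 45.6 CPM in the Spp1 cluster to 83.1 CPM in the Apod cluster in library 2. The 43 and 57 Schwann-like cells had 101 and 25.3 CPM, from 14 and 6 UMIs. Endothelial-like cells had 3.18 CPM and 2.53 CPM of Bmpr1a, from 7 and 10 UMIs, which put them at places 17 and 13 of the 25 classes. Pericyte-like cells were 37.8-fold (17.0 to 99.1) and 48.2-fold (24.1 to 107) above the endothelium for Bmpr1a. The endothelium thus led for the type II receptor and lay below the free-RNA level, 28.3 and 23.2 CPM, for this type I receptor.

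Other type I receptors from the pathway list were found in the endothelium. Acvr1, a type I receptor that also binds BMPs, had 70.9 and 90.6 CPM in endothelial-like cells, near its highest level of 93.0 and 98.5 CPM in the Apod cluster. Acvrl1, the type I receptor known from blood vessels, had 102.3 and 69.9 CPM there. Its highest class was nevertheless mature neutrophil-like cells with 165 and 197 CPM, which were 1.61-fold and 2.82-fold above the endothelium. Acvrl1 is 1 of the 10 leading genes of a mature neutrophil cluster, although it was not used to cluster the cells, so this is a description of that class. Eng (endoglin), a co-receptor that works with Acvrl1, had 577 and 630 CPM in the endothelium, which were 9.81-fold and 7.49-fold above the next class.

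Neutrophils showed another pattern of type I receptors. Mature neutrophil-like cells had 29.2 CPM (25.0 to 33.9) and 25.1 CPM (21.3 to 29.4) of Bmpr1a, and immature ones 24.6 and 20.0 CPM. Monocyte-like cells had 1.28 and 2.32 CPM, and mature neutrophil-like cells were 22.8-fold (9.59 to 71.2) and 10.8-fold (6.46 to 19.4) above them. For Acvr1 mature neutrophil-like cells had 3.95 and 2.48 CPM. The Bmpr1a level of neutrophils was close to that of free RNA, and the part of free RNA in it was not tested. The other blood classes had at most 12.7 and 4.54 CPM.

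**Figure D2:**
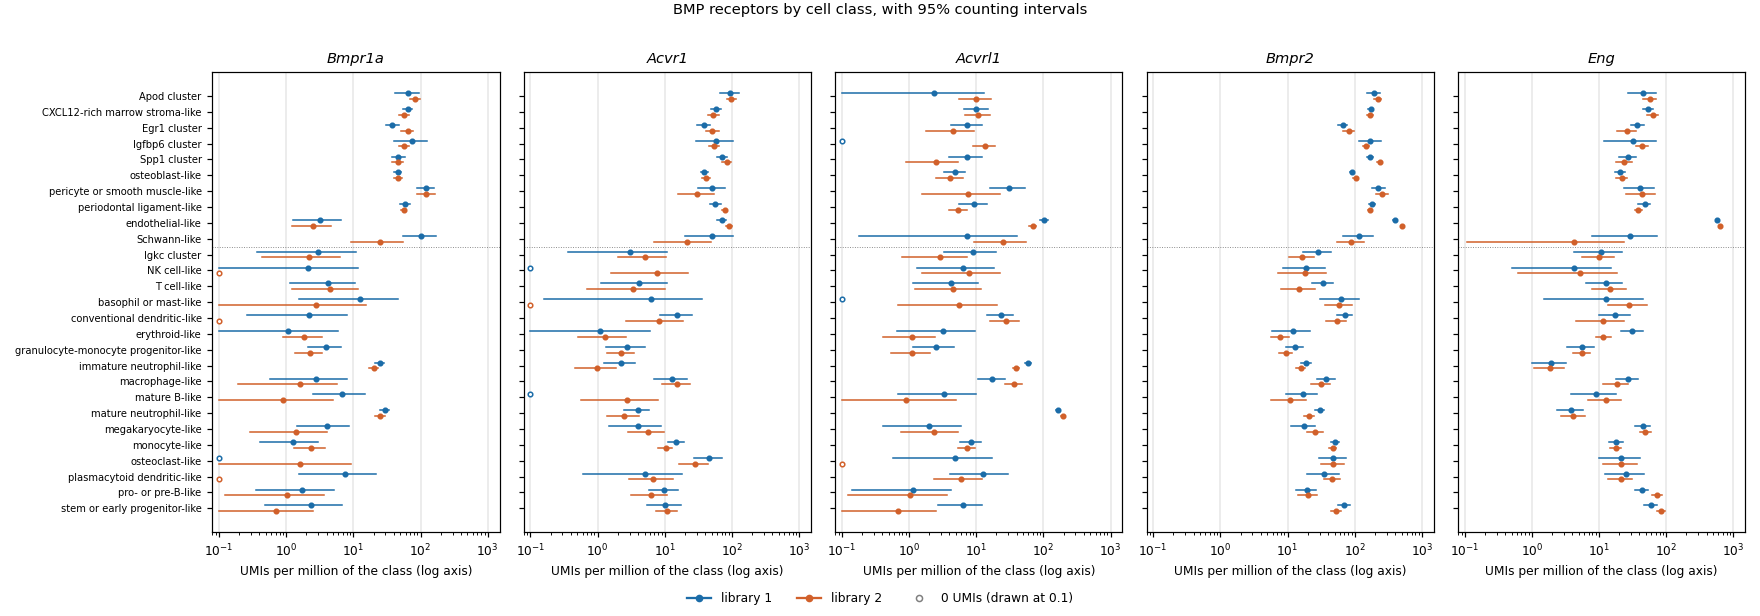
Levels of 3 type I receptors (Bmpr1a, Acvr1, Acvrl1), the type II receptor Bmpr2 and the co-receptor Eng, in UMIs per 1000000 UMIs of the class on a log axis, by cell class and library with 95% counting intervals. In the endothelial-like row Bmpr1a lies at 3.18 and 2.53 while Bmpr2 and Eng reach their highest values, and in the mature neutrophil-like row Acvrl1 is highest and Acvr1 is at 3.95 and 2.48.

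The promoters of the 2 receptors that parted are shown from RefSeq (GRCm38.p6), as the 250 bases before the gene start, 5′ to 3′ on the gene's strand. Capitals mark GGCGCC, a GC-rich motif that SMAD proteins of the BMP branch can bind and which reads the same on both strands.
Bmpr1a, chr14:34502547-34502796, minus strand: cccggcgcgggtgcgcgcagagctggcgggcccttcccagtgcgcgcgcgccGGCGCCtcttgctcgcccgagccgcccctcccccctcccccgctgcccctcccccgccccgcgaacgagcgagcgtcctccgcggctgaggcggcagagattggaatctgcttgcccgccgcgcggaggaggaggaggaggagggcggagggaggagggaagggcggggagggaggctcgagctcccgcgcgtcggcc
Bmpr2, chr1:59764029-59764278, plus strand: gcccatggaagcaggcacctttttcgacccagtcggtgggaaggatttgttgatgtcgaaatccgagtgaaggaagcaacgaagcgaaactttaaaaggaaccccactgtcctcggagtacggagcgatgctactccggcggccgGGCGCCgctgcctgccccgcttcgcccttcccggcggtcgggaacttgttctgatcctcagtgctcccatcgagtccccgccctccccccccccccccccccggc
The motif starts 198 bases before the start of Bmpr1a and 105 before that of Bmpr2. It occurs once in the Grem1 window too and not in those of Bmp4, Bmp6 and Smad6, and 9.59% of 32851 promoters of this length hold it. The windows with the motif were 78.8% (Bmpr1a), 64.0% (Bmpr2) and 72.0% (Grem1) G and C. Those without it were 63.2% (Bmp4), 68.8% (Bmp6) and 66.8% (Smad6). The share over all promoters was not matched for G and C, so it is not a like comparison. The motif CAGACA, or TGTCTG on the other strand, was in 0 of these 6 windows and in 17.1% of all. Bmp2, Nog and Id1 have no entry in the table used.

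Among the antagonists, Nog was a gene of stromal cells with a graded order. Marrow stroma-like cells had 98.4 CPM (86.4 to 112) and 117 CPM (103 to 133), followed by the Apod cluster with 88.3 and 79.1 CPM and the Egr1 cluster with 60.4 and 81.6 CPM. Periodontal ligament-like cells had 51.1 and 50.3 CPM and the Spp1 cluster 49.7 and 61.7 CPM. Osteoblast-like cells had 20.2 and 18.3 CPM, so marrow stroma-like cells were 4.87-fold (3.93 to 6.06) and 6.40-fold (5.01 to 8.23) above them. Marrow stroma-like cells and the Apod cluster did not differ beyond counting error in library 1 (1.11-fold, 0.79 to 1.62), and did in library 2 (1.48-fold, 1.19 to 1.86), where the Egr1 cluster was the next class (1.44-fold, 1.16 to 1.79).

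Noggin RNA was nearly missing from the vessel wall. Pericyte-like cells had 1 Nog UMI in each library (2.56 and 2.54 CPM), and endothelial-like cells had 4 and 15 (1.82 and 3.80 CPM). Marrow stroma-like cells were 54.1-fold (20.9 to 200) and 30.9-fold (18.4 to 56.0) above the endothelium. The highest levels of Bmpr1a and Bmpr2, in pericyte-like and endothelial-like cells, thus lay in classes with almost no Nog. Id1 was highest in the Egr1 cluster, which had 60.4 and 81.6 CPM of Nog, and next in pericyte-like cells. The part of Nog or receptor levels in the Id1 level was not tested.

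Grem1 was found in few cells, and some of these held very many UMIs. Its highest ranked class was marrow stroma-like cells, with 58.1 CPM (49.0 to 68.4) and 33.9 CPM (26.6 to 42.7), but 8.33% and 4.78% of these cells had a UMI. The next class, the Egr1 cluster in library 1 and periodontal ligament-like cells in library 2, was within counting error (1.14-fold, 0.88 to 1.47, and 1.198-fold, 0.91 to 1.57). The unranked Igfbp6 cluster was above all ranked classes, with 171 CPM from 32 UMIs and 57.7 CPM from 130 UMIs.

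Single cells decided several Grem1 levels. In osteoblast-like cells of library 2, 68 of 77 UMIs came from 1 cell. In the Egr1 cluster of library 1 it was 53 of 110 UMIs, and in periodontal ligament-like cells 32 of 56 UMIs in library 1 and 66 of 215 in library 2. Over all stromal and endothelial cells, the 10 richest cells held 60.4% and 52.8% of the Grem1 UMIs. For the other 8 genes the 10 richest cells held from 5.05% (Bmpr2) to 24.0% (Bmp6) in library 1 and from 3.85% (Bmpr1a) to 13.04% (Bmp6) in library 2. Stromal and endothelial cells with at least 5 Grem1 UMIs, a limit chosen after the values were seen, numbered 18 of 2671 in library 1 and 26 of 3947 in library 2, and held 74.4% and 73.8% of the UMIs. A cell's UMIs follow its depth in part, and the 2 such cells among osteoblast-like cells of library 2 had a median of 31549.5 UMIs against 7234.5 for the class. Whether these were doublets was not tested. The Grem1 level of a class therefore carries a larger error than its counting interval.

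**Figure D3:**
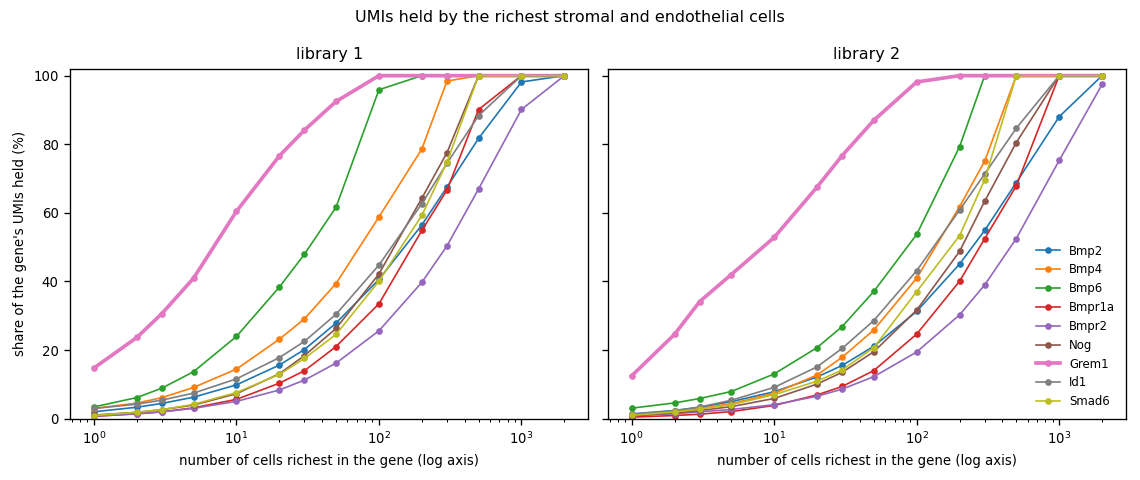
Share of each gene's UMIs (vertical axis, percent) held by the cells richest in that gene (horizontal log axis, number of cells), over stromal and endothelial cells of library 1 (left) and library 2 (right). The Grem1 line is the highest in both panels, with 60.4% and 52.8% of its UMIs in 10 cells.

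Id1, a direct target of BMP signalling that blocks differentiation factors, was highest in the Egr1 cluster, with 315 CPM (292 to 339) and 288 CPM (261 to 316). Pericyte-like cells followed with 228 and 211 CPM, and the Egr1 cluster was 1.38-fold (1.11 to 1.74) and 1.36-fold (1.08 to 1.75) above them. Immediate early genes, which respond within minutes to many stimuli including tissue digestion, were high in that cluster, with 12186 and 10123 CPM of Fos against 1666 and 2833 CPM in pericyte-like cells. Their part in the Id1 level was not tested. Endothelial-like cells had 126 and 123 CPM of Id1. Among the remaining classes pericyte-like cells were the highest in both libraries.

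Among blood classes, Id1 was highest in the granulocyte line. Immature neutrophil-like cells had 112 CPM (105 to 121) and 82.0 CPM (76.2 to 88.2), mature ones 68.3 and 82.6 CPM, and basophil or mast-like cells 108 and 110 CPM. Granulocyte-monocyte progenitor-like cells had 56.5 and 37.9 CPM, and immature neutrophil-like cells were 1.99-fold (1.70 to 2.33) and 2.17-fold (1.90 to 2.47) above them. Monocyte-like cells had 36.8 and 26.5 CPM. B, T and erythroid-like classes were lower, for example 6.38 and 3.59 CPM in pro- or pre-B-like cells. Free RNA held 70.8 and 53.2 CPM. Mature neutrophil-like cells of library 1, and progenitor-like and monocyte-like cells of both libraries, also lay below this. The part of free RNA in the Id1 levels was not tested. Mature neutrophil-like cells comprised 3 clusters, of which 1 had 983 cells in library 1 and 150 in library 2, and their Id1 levels ran from 47.1 to 82.0 CPM and from 73.0 to 96.5 CPM.

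Smad6, which encodes an inhibitor of the pathway and is itself switched on by it, was nearly level across osteoblast-like cells (42.4 and 28.9 CPM), endothelial-like cells (42.3 and 26.8 CPM) and marrow stroma-like cells (36.7 and 27.9 CPM), with pericyte-like cells close by (38.4 and 22.9 CPM). Osteoblast-like cells stood first in both libraries, but were within counting error of the next class (1.00-fold, 0.79 to 1.28, and 1.04-fold, 0.76 to 1.42). Periodontal ligament-like cells had less, 11.7 and 12.8 CPM, and osteoblast-like cells were 3.63-fold (2.39 to 5.76) and 2.26-fold (1.73 to 2.96) above them. Mature and immature neutrophil-like cells, which were among the highest blood classes for Id1, had at most 2.23 CPM of Smad6 in either library. The 2 targets thus had different orders of classes.

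Pairs of these genes were also read in the same cells, where detection of a pair rises with depth. In periodontal ligament-like cells 31.8% and 27.7% of the cells with a Bmp2 UMI also had a Nog UMI, against 22.7% and 24.3% of the whole class. In the Egr1 cluster the share was 23.0% against 20.4% of the class in library 1 and 20.8% against 24.0% in library 2. In endothelial-like cells it was 0.877% and 3.30%, against 1.00% and 1.55% of the class. Cells with a Bmp2 UMI were deeper: in endothelial-like cells of library 2 their median was 7977 UMIs against 3760.5 in those without. In osteoblast-like cells 37.0% and 38.1% of the cells with a Bmpr2 UMI had a Bmpr1a UMI, against 27.6% and 28.4% of the class, and in endothelial-like cells 1.78% and 1.93%, against 2.33% and 1.55%.

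The wider pathway was read from a list of 48 other genes, of which 37 were measured and 22 were highest in one and the same class in the 2 libraries, beside the 53.4% of all genes. Of 12 other ligands, 6 were measured and 3 had a shared highest class. Bmp8a was highest in the Spp1 cluster with 59.1 and 87.8 CPM, 2.58-fold and 2.60-fold above osteoblast-like cells. Bmp3, a ligand that works against bone formation, led in the Spp1 cluster as well with 130 and 167 CPM, but was close to osteoblast-like cells with 104 and 155 CPM. Bmp5 was highest in marrow stroma-like cells, with 47.2 and 63.2 CPM. The cluster with the highest Bmp2 level was therefore also the highest for Bmp3 and Bmp8a.

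Of 8 other receptors, 5 were measured and 4 had a shared highest class. Besides those above, Rgmb, a co-receptor, was highest in the endothelium with 46.4 and 47.3 CPM. Of 12 other antagonists and modulators, 10 were measured and 6 had a shared highest class. Bmper, a secreted BMP-binding protein, was highest in the Spp1 cluster with 24.0 and 42.3 CPM, 3.31-fold and 5.05-fold above marrow stroma-like cells. Fstl1 had 976 and 892 CPM and Nbl1 573 and 486 CPM in the Apod cluster. Fstl3 was highest in Schwann-like cells, with 417 and 186 CPM.

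Of 7 signalling genes, 7 were measured and 4 had a shared highest class. Smad1 and Smad5, the SMAD proteins of the BMP branch, were both highest in endothelial-like cells, Smad1 with 129 and 115 CPM and Smad5 with 112 and 101 CPM. Smad9, the remaining one, had only 6.501 and 7.12 CPM in its highest class, the Egr1 cluster. Of 9 other targets, 9 were measured and 5 had a shared highest class. Id3 was highest in the Egr1 cluster, like Id1, with 3355 and 3267 CPM, and is among that cluster's 10 leading genes. Id4 was highest in pericyte-like cells with 218 and 211 CPM, and Id2 in macrophage-like cells with 1551 and 1984 CPM. The 4 Id genes thus had 3 different leading classes.

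Across the 25 classes, the genes most like each member were found by correlation of log2(CPM + 10), with the classes of a library sharing depth and free RNA. The genes nearest to Bmp2 were Npdc1 (r = 0.95 and 0.97), Ccn2 (0.94 and 0.98) and Serpinh1 (0.93 and 0.95). Bmp4 was most like Gja1 (0.88 and 0.94), Npnt and Ccn2, and Bmp6 most like Nsg1 (0.91 and 0.92), Fmo1 and Cxcl12, the last a marker used to name the marrow stroma. Bmpr1a was nearest to Fxyd1 (0.92 and 0.93), Daam2 and Gm56815, and Bmpr2 to Ppfibp1 (0.90 and 0.91), Yap1 and the type I receptor Acvr1. Nog had the closest match, Srpx (0.97 and 0.97), followed by Gpx3 and Clec11a, and Grem1 was nearest to Scube2 (0.89 and 0.90), Armh4 and Crabp1. For Id1 the nearest were Cebpd (0.80 and 0.87), Klf5 and Anxa1, and for Smad6 Pls3 (0.94 and 0.91), Lix1l and Fosb. Among the members themselves r was highest for Bmp2 with Smad6 in library 1 (0.90) and lowest for Grem1 with Id1 (0.29), and in library 2 highest for Nog with Bmp2 and for Bmpr2 with Smad6 (0.86 each) and lowest for Grem1 with Id1 (0.42).

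Most levels of the 9 genes lay within 2-fold between the libraries. Of 84 pairs of gene and class with at least 40 UMIs over both libraries, 6 were at least 2-fold higher in library 1 and 3 at least 2-fold higher in library 2. Over all genes and ranked classes, 5.79% of such pairs were 2-fold higher in library 1 and 2.14% in library 2, and the share of genes within the class is given beside each named pair. A counting interval that excluded 1 was found for 34 of the 84 pairs. The share over all genes is not given for this limit, so the 34 is not a result about these 9 genes. Since each library is 1 pool, the spread between pools is not known.

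Id1 differed in opposite directions in 2 stromal classes. In marrow stroma-like cells it was 87.1 CPM in library 1 and 181 CPM in library 2, 2.08-fold (1.76 to 2.47) higher in library 2, beside 1.64% of genes. In osteoblast-like cells it was 73.9 and 28.5 CPM, 2.59-fold higher in library 1, beside 3.62% of genes. Fos differed the same way in these classes, with 2237 and 3653 CPM in marrow stroma-like cells and 2963 and 1497 CPM in osteoblast-like cells. In the Egr1 cluster, the Apod cluster and Schwann-like cells Fos and Id1 also differed in the same direction. In pericyte-like, endothelial-like and periodontal ligament-like cells and the Spp1 cluster, Fos was higher in library 2 while Id1 was level or lower. The part of Fos in the Id1 difference was not tested. In osteoblast-like cells Id1 was close to its free-RNA level, given above, in library 1 and below it in library 2. Periodontal ligament-like cells lay below that level in both libraries. The part of free RNA in these differences was not tested. Bmp6 was 7.27 and 19.2 CPM in endothelial-like cells, 2.64-fold (1.53 to 4.86) higher in library 2 from 16 and 76 UMIs, beside 1.75% of genes.

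The 20.8-fold difference of Grem1 in osteoblast-like cells rested on the 1 cell described above, beside 1.18% of genes, and its 2.72-fold higher level in the Egr1 cluster of library 1 on a cell with 53 of 110 UMIs, beside 4.12%. Bmp2 was 4.37-fold higher in megakaryocyte-like cells of library 1 (54.7 and 12.5 CPM), beside 3.19% of genes, with 10 of its 82 UMIs in 1 cell. The remaining pairs past 2-fold were Bmp2 in granulocyte-monocyte progenitor-like and immature neutrophil-like cells (beside 4.71% and 5.66% of genes) and Bmpr2 in T cell-like cells (beside 4.28%). Each of these 3 was higher in library 1 and rested on 13 to 32 UMIs a library. They and the Bmp2 level of megakaryocyte-like cells lay below the gene's free-RNA level, given above, in both libraries.

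**Figure D4:**
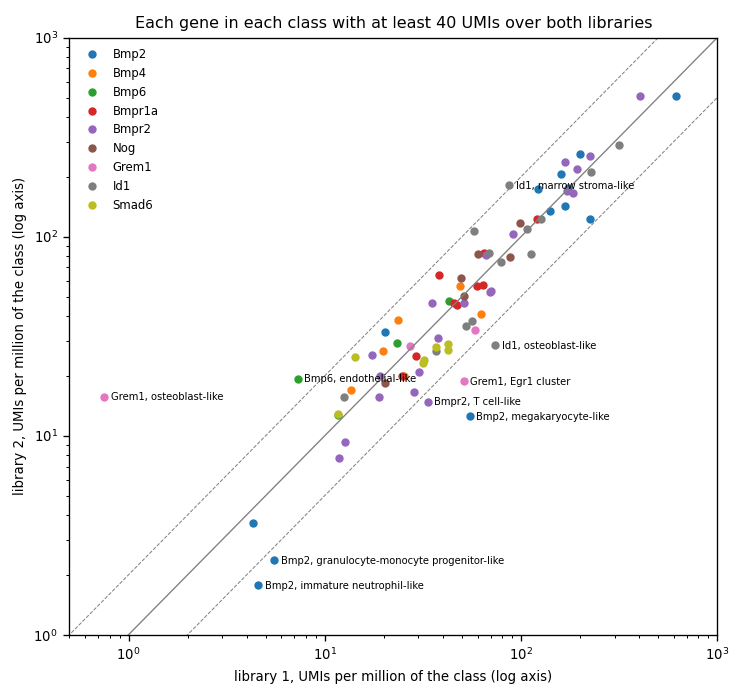
Each point is 1 of the 9 genes in 1 cell class, with its level in library 1 on the horizontal and in library 2 on the vertical log axis, in UMIs per 1000000 UMIs of the class, for the 84 pairs with at least 40 UMIs over both libraries. The solid line marks equal levels and the dashed lines a 2-fold difference, and the 9 points outside the dashed lines are labelled.

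Outside the rule for named genes, and chosen after their values were seen, 3 antagonists or modulators differed more than the members did in periodontal ligament-like cells. Chrdl1 (a chordin-like antagonist) had 30.6 and 3.16 CPM, and Fst (follistatin) 81.7 and 21.1 CPM, both higher in library 1, beside 5.30% of genes. Fstl3 had 59.8 and 138 CPM, higher in library 2, beside 2.29%. Nog in the same class had 51.1 and 50.3 CPM.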

How the data were processed

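For each of the 2 libraries the authors deposited an unfiltered matrix of UMI counts, genes by barcodes, as whole numbers without normalization, per the file headers. Per the labels' protocols, alveolar bone was digested for 60 min with the dissociation solution of a single-cell kit and red cells were lysed. FastQC 0.11.9 and the builds GRCh38 and mm10 are named, with no role, in the submitters' processing notes. For the aligner, the counter and the annotation nothing is given in the sources used here. The 43167 features without a symbol, with 0.636% and 0.459% of the UMIs, were left out.

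Barcodes with at least 837 UMIs in library 1 and 1150 in library 2 (the inflection of the barcode rank curve), at least 200 genes and at most 20% mitochondrial UMIs were called cells. Scrublet's automatic threshold marked 0 and 2 cells and had not worked, so the top 5% of cells by score, 490 and 595 cells, were dropped, and doublets may remain. Clustering was joint and used no batch correction (scanpy 1.11.5, 2000 variable genes, 30 components, 15 neighbours, Leiden resolution 1.5). All BMP pathway genes and all mitochondrial, ribosomal and sex-linked genes were left out of the variable genes.

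A cluster took the name of a marker list, of 29, if at least 3 of its markers and 50% of the list stood 3-fold or more above the remaining cells, at least 2 were among its 10 leading genes, and no other list had more there. The limits of this rule were set after the clusters' leading genes had been seen. The marker Vpreb2 did not match a symbol. Of 32 clusters 27 were named and 5 stayed unnamed. The 27 classes include 25 with at least 30 cells in both libraries, and only these 25 were ranked.

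In each library the UMIs of a class were added up and scaled to 1000000 UMIs of that class (CPM), with exact Poisson intervals. Ratios of 2 classes or libraries have exact binomial intervals. All intervals are at 95% and cover counting error only. Shares of cells were also taken after thinning each cell to 1000 UMIs. A gene was measured with at least 20 UMIs in some ranked class of each library. Levels in free RNA are those in barcodes of 1 to 100 UMIs. Each library is 1 pool with no group in its labels, so no test was made.

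The members, lists and rules were chosen with earlier results of these data known. All 9 members are named. Likeness is Pearson's r of log2(CPM + 10) over the 25 classes, and the 3 best genes by the lower r of the libraries are named. Other pathway genes are named if the highest class exceeded each of the others by 2-fold or more in the 2 libraries, with up to 3 more per role by the lower ratio. A gene that this rule names is not reported here. The ranking and the intervals were tested on simulated counts.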

Additional observations from a re-analysis of the deposited data

How the results depend on the processing

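Bmp2 and Bmpr2 kept their leading class in 12 of 12 other settings, Id1 in 9 of 9 that could be run, Bmpr1a in 11 of 12, Nog in 10 of 12 and Bmp6 in 9 of 10. Grem1 kept it in 6 of 12 and Smad6 in 4 of 12, and the cause was not tested. The count of 8 members with a shared highest class was 3 with cells thinned to 1000 UMIs and 6 to 8 elsewhere. Of all measured genes, 50.3% had a shared highest class with thinned cells, and 50.5% to 56.0% elsewhere. How many members were measured with thinned cells is not given here. The count of 0 members at least 2-fold above every other class was 2 at resolution 1.0, and 1 at resolution 2.0, with each library clustered on its own, with the mean of each cell's CPM, and without the Egr1 cluster, an alternative chosen after seeing the data. In these settings 10.1% to 12.2% of all measured genes passed the same limit. The count of 22 other pathway genes was 14 with thinned cells, where 25 were measured. The log2 ratio of the leading class to the next, in the lower library, changed sign as follows. With thinned cells it was -0.22 for Bmp6, -0.19 for Bmpr1a, -0.18 for Nog, -0.13 for Grem1 and -0.35 for Smad6. At resolution 1.0 it was -1.93 for Grem1 and -0.14 for Smad6, and at resolution 2.0 -0.0545 for Nog, -2.31 for Grem1 and -0.0886 for Smad6. With classes of at least 15 cells, which admit the Igfbp6 cluster, it was -1.56 for Grem1 and -0.0632 for Smad6. With the mean of each cell's CPM it was -0.19 for Grem1 and -0.33 for Smad6, and with size factors -0.0355 for Grem1. For Smad6 it was -0.20 with each library clustered on its own, -0.0374 with at least 2000 UMIs and -0.0362 with at most 10% mitochondrial UMIs. Bmp4 had a shared leading class, the endothelium, only with each library clustered on its own (0.45). The Apod and Egr1 clusters did not form at resolution 1.0 or with each library clustered on its own, so Bmp6 and Id1 have no value there. No paired analysis was possible because the labels give the libraries no group.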

Other observations

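Cells rich in Grem1 (at least 5 UMIs, 18 and 26 stromal cells, a limit chosen after the values were seen) lay in several classes. In library 1 they were 9 marrow stroma-like cells and 3 each of the Egr1 cluster, the Igfbp6 cluster and periodontal ligament-like cells, and in library 2 they were 8 each of the Igfbp6 cluster and periodontal ligament-like cells, 4 marrow stroma-like cells and 2 each of the Apod cluster, the Egr1 cluster and osteoblast-like cells. Their median depth was 6087.5 and 8827 UMIs, against 5456 and 5379 UMIs in the other stromal cells. Among genes with a UMI in at least 20% of these cells in each library, Ptx3, a secreted pattern recognition protein and a leading gene of the marrow stroma-like cluster, had the highest lower ratio of the libraries, with 680 and 211 CPM against 59.9 and 34.2 CPM in the other stromal cells. Cxcl12, a marrow niche chemokine and a marker of the marrow stroma list, had 3335 and 600 CPM against 154 and 118 CPM. Bmp6 was the 1 member of the BMP set among the first 15 such genes, with 51.8 and 42.9 CPM against 7.64 and 13.5 CPM. Only 22.2% and 26.9% of the cells rich in Grem1 had a Bmp6 UMI. The other stromal cells were not matched by class, and Bmp6 was also high in marrow stroma-like cells as a class. These values describe cells chosen by their Grem1 count and were not tested.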
